A study of Homo sapiens with 6 samples.

Results

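Counts of 10 transcripts that mark lymphocytes and natural killer (NK) cells are described here in 6 RNA-seq libraries whose labels give MDA-MB-231, a breast cancer line, as the source. The 10 genes, of 24462 symbols listed, are PTPRC, GZMA, GZMB, NKG7, CD3E, CD2, IL7R, LCK, KLRD1 and CCL5. They were chosen by their raw counts in these libraries and by their steadiness between the groups, so those values are a description and carry no test. All 10 were found, each on 1 line, and all 10 passed the filter on low counts. No library is labelled as an immune cell sample.

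The line is triple-negative and was obtained from the American Type Culture Collection. The 2 control libraries came from cells infected with a retrovirus made from a control plasmid. The other 4 came from cells in which a retroviral shRNA against ELK3, an ETS-family transcription factor, was stably expressed. In the labels, 2 of these 4 received pLenti-cMyc-DDK (called the vector pair below, and vector-labelled where single) and 2 received pLenti-cMyc-DDK-ELK3 (the ELK3-labelled pair), each as 1 µg of plasmid with collection 48 h later. No plasmid, dose or time is given for the controls, so any contrast with them covers both the labelled knockdown and the transfection. The labels do not say whether the 2 libraries of a group are separate cultures, so every p-value measures only the spread between these libraries, which may be technical.

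T cells recognise antigen through the T-cell receptor, whose signal passes through the CD3 chains to the kinase LCK, with CD2 as an adhesion and costimulatory receptor. NK cells and cytotoxic T cells kill by releasing granules that hold perforin, granulysin and granzymes, and they secrete chemokines such as CCL5. IL7R is the receptor chain for interleukin-7, on which resting T cells depend. PTPRC, also called CD45, is a tyrosine phosphatase on the surface of nucleated blood cells of all lineages.

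The promoters of IL7R, the member that differed most between the groups, and of GZMA, whose ratio differed least, are shown because the targeted gene encodes an ETS factor. In the set of RefSeq promoters used here 7 of the 10 members were matched, and CD3E, KLRD1 and CCL5 had no entry. Each run is the 250 bases before the gene's start in GRCh38.p14, read 5′ to 3′ on the gene's strand, with GGAA or its reverse complement TTCC, the core that ETS factors bind, in capitals. IL7R lies on the plus strand, and the run is chr5:35856641-35856890. GZMA also lies on the plus strand, and the run is chr5:55102396-55102645.
IL7R: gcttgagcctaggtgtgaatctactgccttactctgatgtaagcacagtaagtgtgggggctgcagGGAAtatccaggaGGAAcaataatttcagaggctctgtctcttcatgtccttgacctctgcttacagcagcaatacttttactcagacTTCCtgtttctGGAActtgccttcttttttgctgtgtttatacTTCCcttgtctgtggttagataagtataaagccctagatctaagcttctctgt
GZMA: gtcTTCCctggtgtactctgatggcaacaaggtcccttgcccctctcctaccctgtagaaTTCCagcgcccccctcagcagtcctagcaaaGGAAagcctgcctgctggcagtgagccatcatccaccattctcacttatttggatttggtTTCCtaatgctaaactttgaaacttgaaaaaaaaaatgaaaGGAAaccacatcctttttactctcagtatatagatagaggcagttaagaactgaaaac
Each of the 2 windows holds 5 matches to the core, and the core occurs in 92.7% of 35116 promoter windows of this length, with a median of 3 matches. The longer motif CCGGAAGT, which contains the core, was searched on both strands. It had 0 matches in the 7 windows and occurs in 3.42% of all windows. The matches are a description of the letters only.

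Library totals ran from 4884483 to 9131214 counts, and 3 counts, the limit that a count of 0 allows at 95% confidence, stand for 0.329 to 0.614 counts per 1000000 counts of the library (CPM). That limit covers counting error only. ELK3, the targeted gene, ran against the labels. It stood at 128.6 and 123.9 CPM in the control pair, 758.9 and 697.2 CPM in the vector pair and 20.4 and 22.6 CPM in the ELK3-labelled pair, so the group names here are labels only and no direction below is read as an effect of ELK3. The headers of the deposited tables also disagree with the labels: the columns of the vector pair are headed KD+E and those of the ELK3-labelled pair KD. Groups follow the labels throughout, and if the headers are right, the names of the vector pair and the ELK3-labelled pair change places in every value below. Of the genes listed as a check of the line, VIM, CD44, AXL, CAV1, EGFR and ANXA1 were highest in the control pair, with 9950 and 8939 counts of VIM there and 2229 to 3425 in the other 4 libraries. KRT18 was highest in the ELK3-labelled pair. PGR, a hormone receptor gene listed as one the line should lack, had 50 and 38 counts in the vector pair and 0 to 6 elsewhere. ESR1, the other hormone receptor gene listed, was counted in every group, at a mean of 19.8 CPM in the control, 22.8 in the vector and 16.5 in the ELK3-labelled pair. Genes of other tissues were counted too. A list of 29 hepatocyte genes held 1.38% to 1.77% of each library, led by ALB, the blood protein albumin, at 3011 to 3986 CPM.

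Counts of the 10 transcripts were low and present in every library. Together they made up 0.0161% to 0.0209% of a library, or 958 to 1484 counts. Summed and scaled for depth by the trimmed mean of M-values (TMM), they stood at 210.2 and 208.2 CPM in the control pair, 204.9 and 203.3 CPM in the vector pair and 152.3 and 157.8 CPM in the ELK3-labelled pair. Both ELK3-labelled libraries were below the other 4, whose values lay close together. In bulk RNA, fewer cells of a type and less RNA per cell cannot be told apart.

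Hepatocyte-list counts moved in the same way: 13045 and 13704 CPM in the ELK3-labelled pair against 16026 to 17343 CPM in the other 4. Each member was therefore also expressed as counts per 10000 hepatocyte-list counts, a ratio that does not depend on the library total. Over the 9 members other than IL7R that ratio was 124.5 and 118.3 in the control pair, 117.0 and 123.8 in the vector pair and 115.7 and 113.7 in the ELK3-labelled pair. On this scale the ELK3-labelled pair was still the lowest, but close to vector-labelled replicate 1. The part of the hepatocyte RNA in the members' levels was not tested.

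**Figure D1:**
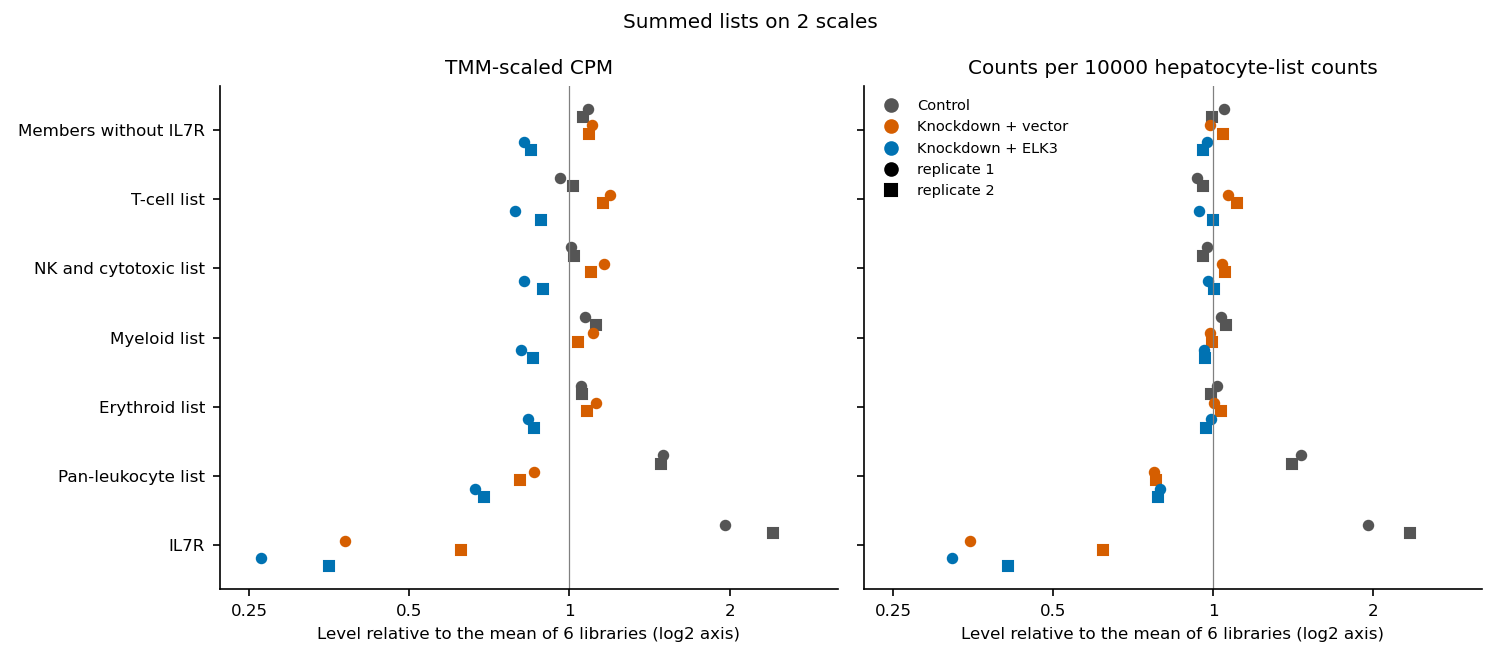
Summed levels of the members without IL7R, of IL7R alone and of the T-cell, NK, myeloid, erythroid and pan-leukocyte lists in the 6 libraries. Values are relative to the mean of the 6 (log2 axis). They are given as TMM-scaled CPM (left) and per hepatocyte-list count (right). Colours are groups and marker shapes replicates. The ELK3-labelled pair sits lowest in CPM for the members without IL7R. The pan-leukocyte list is highest in the 2 controls on both scales.

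PTPRC, the phosphatase of all leukocytes, had 140 and 156 counts in the control pair, 246 and 169 in the vector pair and 153 and 227 in the ELK3-labelled pair. In CPM these were 29.3 and 33.5, then 36.1 and 33.8, then 24.3 and 24.1. The ELK3-labelled pair was the lowest and did not overlap with either other group. Per 10000 hepatocyte-list counts PTPRC stood at 18.3 and 20.4, at 20.8 and 20.9, and at 18.7 and 17.6, so the ELK3-labelled range then overlapped with that of the controls. The log2 difference of the ELK3-labelled from the vector pair was -0.53 ± 0.14 (SE, n = 2 per group), and -0.21 when the hepatocyte sum was used as library size, a setting chosen after the data were seen.

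GZMA, granzyme A, a serine protease of cytotoxic granules, had 214 and 209 counts in the control pair, 340 and 214 in the vector pair and 210 and 326 in the ELK3-labelled pair. The CPM values were 44.8 and 44.9, 49.9 and 42.8, and 33.4 and 34.7, lowest in the ELK3-labelled pair. Its ratio to the hepatocyte list was 27.9 and 27.3, 28.8 and 26.5, and 25.6 and 25.3 per 10000. The highest ratio was 1.14 times the lowest, the narrowest range of the 10 members, and the ELK3-labelled pair stayed just below the other 4 libraries.

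GZMB, granzyme B, the granule protease that cleaves caspases, had 75 and 82 counts in the control pair, 118 and 84 in the vector pair and 64 and 129 in the ELK3-labelled pair. Its ratio was 9.79 and 10.7, 9.99 and 10.4, and 7.80 and 10.0 per 10000 hepatocyte-list counts. ELK3-labelled replicate 1 was the low library, and replicate 2 lay inside the range of the other groups. Reads of GZMB can be shared with its close relative GZMH, so its values are uncertain to that extent.

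NKG7, a membrane protein of cytotoxic granules, had 109 and 95 counts in the control pair, 115 and 97 in the vector pair and 79 and 159 in the ELK3-labelled pair. Per 10000 hepatocyte-list counts these were 14.2 and 12.4, 9.74 and 12.02, and 9.63 and 12.3. Both controls were above the other 4 libraries on that scale, although the second control exceeded the highest of the 4 only slightly. The log2 difference from the controls was -0.26 ± 0.18 in the vector-labelled and -0.53 ± 0.18 in the ELK3-labelled pair (SE, n = 2 per group).

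CD3E, a chain of the CD3 complex, had the fewest counts: 20 and 12 in the control pair, 30 and 12 in the vector pair and 12 and 26 in the ELK3-labelled pair. The ratio was 2.61 and 1.57, 2.54 and 1.49, and 1.46 and 2.02 per 10000, and all groups overlapped. Standard errors of its log2 differences were 0.40 to 0.43, so the depth could not show a modest difference in either direction.

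CD2, the adhesion receptor of T and NK cells, had 46 and 40 counts in the control pair, 57 and 42 in the vector pair and 47 and 61 in the ELK3-labelled pair. The ratios, 6.003 and 5.22, 4.83 and 5.20, and 5.73 and 4.73 per 10000, showed the ELK3-labelled pair overlapping with both other groups. LCK, the kinase that starts T-cell receptor signalling, had 21 and 20 counts, 32 and 21, and 20 and 30 in the same order of groups. Its ratio stayed between 2.33 and 2.74 per 10000 in all 6 libraries, with the ELK3-labelled pair lowest at 2.44 and 2.33.

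KLRD1, also called CD94, is the partner chain of the NKG2 receptors of NK cells. It had 46 and 33 counts in the control pair, 47 and 49 in the vector pair and 40 and 65 in the ELK3-labelled pair. The ratio was 6.003 and 4.31, 3.98 and 6.07, and 4.88 and 5.04 per 10000. The libraries of the first 2 groups spread around the ELK3-labelled pair, which lay between them.

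CCL5, a chemokine that T and NK cells release and that some tumour cells also make, had 283 and 260 counts in the control pair, 396 and 311 in the vector pair and 324 and 443 in the ELK3-labelled pair. In CPM it stood at 59.2 and 55.9, 58.2 and 62.2, and 51.5 and 47.1, lowest in the ELK3-labelled pair. The ratio was 36.9 and 33.9, 33.5 and 38.5, and 39.5 and 34.4 per 10000, and all groups overlapped on that scale. The sign of its ELK3-labelled difference changed with the scaling: the log2 difference from the vector pair was -0.29 ± 0.11 with TMM and 0.03 with the hepatocyte sum as library size.

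IL7R stood apart from the other 9. It had 51 and 61 counts in the control pair, 14 and 17 in the vector pair and 9 and 18 in the ELK3-labelled pair, or 10.7 and 13.1, 2.06 and 3.40, and 1.43 and 1.91 CPM. Both controls were above all 4 knockdown-labelled libraries on either scale. Per 10000 hepatocyte-list counts it was 6.66 and 7.96 in the control pair and between 1.097 and 2.11 elsewhere, so the highest ratio was 7.25 times the lowest. Its log2 difference from the controls was -2.16 ± 0.32 in the vector-labelled and -2.78 ± 0.33 in the ELK3-labelled pair (SE, n = 2 per group), and -2.20 and -2.51 with the hepatocyte sum as library size. IL7R also lay highest in the same 2 libraries as VIM, CD44, AXL, CAV1, EGFR and ANXA1, though not KRT18, and whether its reads came from the line or from blood cells was not tested.

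**Figure D2:**
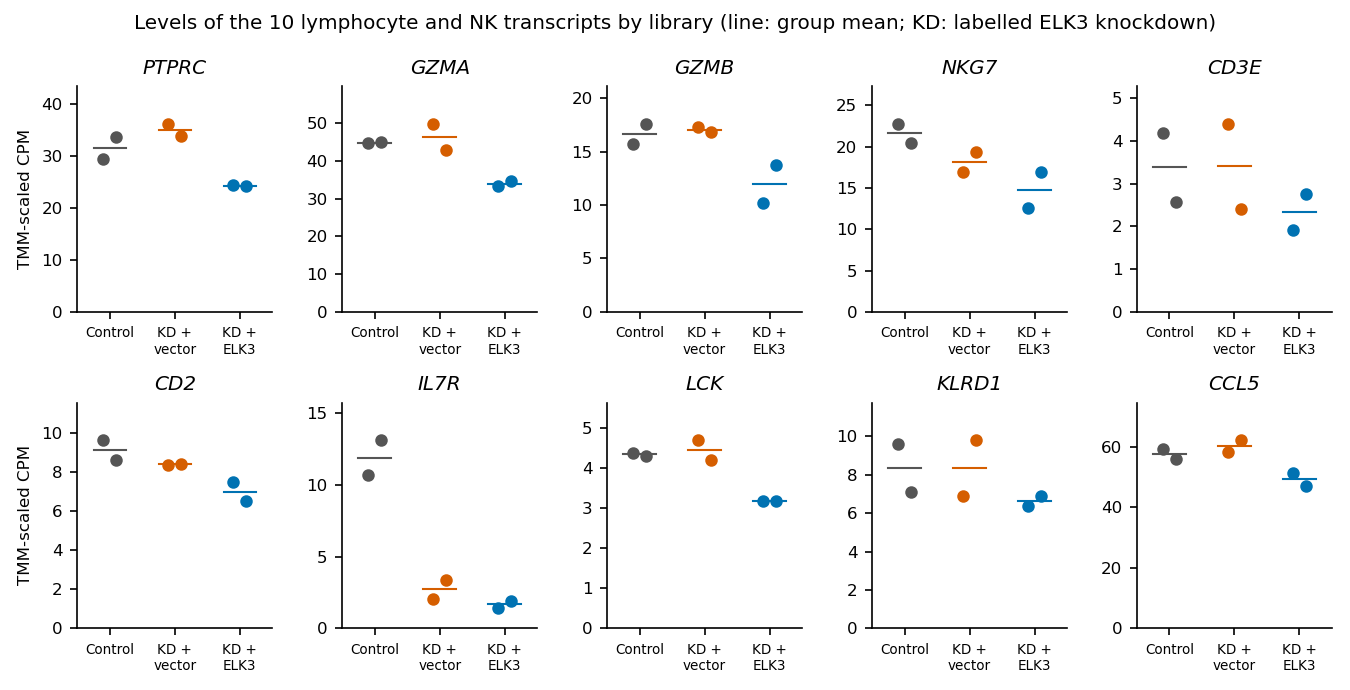
TMM-scaled CPM of each of the 10 transcripts in the 6 libraries, 1 panel per gene on its own axis from 0, with the group mean as a line. IL7R stands at 10.7 and 13.1 CPM in the control pair and between 1.43 and 3.40 CPM in the other 4 libraries. PTPRC, GZMA, GZMB, CD2, IL7R, LCK and CCL5 are lowest in the ELK3-labelled pair.

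**Figure D3:**
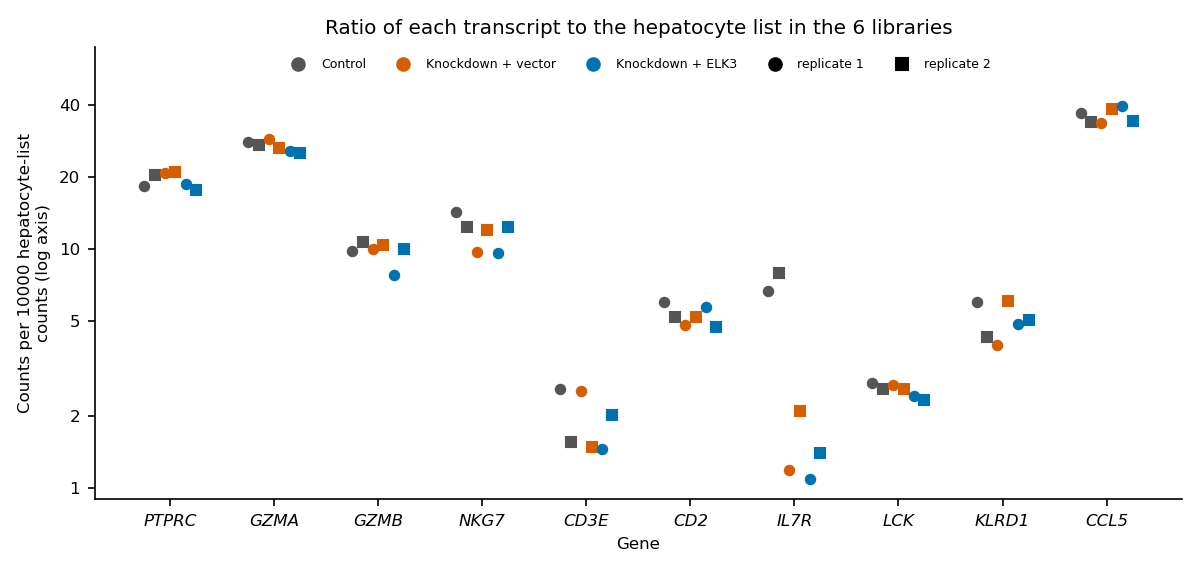
Counts of each transcript per 10000 hepatocyte-list counts in the 6 libraries (log axis), with groups as colours and replicates as marker shapes. The 6 points of a gene lie within 1.78 times of each other for 9 genes, and those of IL7R span 7.25 times.

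The narrowness of these ranges can be set against counting error. For each gene the chi-square over the 6 libraries was divided by its degrees of freedom, with the hepatocyte sum as the measure of depth, so that pure counting error gives about 1. The 9 members other than IL7R ran from 0.107 to 2.39 with a median of 1.09, and IL7R reached 26.4. Among the 9367 tested genes with as many counts as the members, between 112 and 2017 over the 6 libraries, the median was 13.4 and 14.9% lay under 3. With the TMM-scaled depth the same 9 members ran from 0.755 to 7.04. Since the members were chosen for steadiness, this describes them and tests nothing.

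The fit over all genes put the members' differences in the following context. Between the vector-labelled and control libraries 1 of 10 members was called, IL7R, which fell, where 72.3% of 15386 tested genes were called at an adjusted p of 0.05. The members' median log2 difference was 0.04, against 0.05 over all genes. Between the ELK3-labelled and vector pairs 0 rose and 4 fell, PTPRC, GZMA, GZMB and CCL5, where 29.6% of all genes fell and 59.6% were called. The median of the members was -0.47 and that of all genes -0.02. Between the ELK3-labelled and control libraries 0 rose and 5 fell, PTPRC, GZMA, GZMB, NKG7 and IL7R, where 30.8% of all genes fell and 62.6% were called. Nothing is read from these counts, because the members' steadiness between the groups was part of their choice and the comparisons share libraries.

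The fallen members depended on the scaling. With the hepatocyte sum as library size, 0 of 10 were called between the ELK3-labelled and vector pairs, where 44.1% of all genes rose and 16.7% fell. On that scale 4 of the 10 had a log2 difference above 0 there, NKG7 at 0.05, CD2 at 0.05, KLRD1 at 0.02 and CCL5 at 0.03. IL7R was the 1 called in each contrast with the controls, where 36.1% of all genes fell in the vector pair and 20.2% in the ELK3-labelled pair. Library totals without TMM left 1 of 10 in the contrast of the ELK3-labelled pair with the controls, where 24.5% of all genes fell. Against the vector pair they kept 4, where 4372 of 15386 genes fell. DESeq2 size factors kept 4 against the vector pair and 5 against the controls, where 4568 and 4772 genes fell. DESeq2 left 2 in each of the 2 contrasts of the ELK3-labelled pair, where 22.8% of all genes fell against the vector pair and 25.9% against the controls. Without a filter on low counts 2 members fell against the vector pair, where 21% of all genes fell. Some calls in the contrasts of the ELK3-labelled pair were lost when 1 library was left out. Such fits leave a group with 1 library, so their calls are not counted here. Over the planned settings, each library left out among them, the log2 differences are given as ranges. Against the vector pair they ran from -0.60 to -0.47 for PTPRC and from -0.54 to -0.32 for GZMA. For GZMB they ran from -0.74 to -0.31 and for CCL5 from -0.36 to -0.21. Against the controls, PTPRC ran from -0.47 to -0.21, GZMA from -0.43 to -0.24, GZMB from -0.71 to -0.28 and NKG7 from -0.78 to -0.35. The log2 difference of IL7R between vector-labelled and control libraries ran from -2.53 to -1.80.

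In CPM, both ELK3-labelled libraries were below the other 4 for 7 of 10 members (PTPRC, GZMA, GZMB, CD2, IL7R, LCK and CCL5), against 15.7% of all genes tested. The hepatocyte list did so for 26 of 29 genes. Per hepatocyte-list count, 2 of 10 members did so (GZMA and LCK), against 6.58% of all genes. For the 35 other T-cell and NK genes tested, the counts were 13 and 3 on the same 2 scales. The members' raw counts and their steadiness between the groups entered their choice, and both scales are made from those counts. The numbers of members given here are therefore a description.

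**Figure D4:**
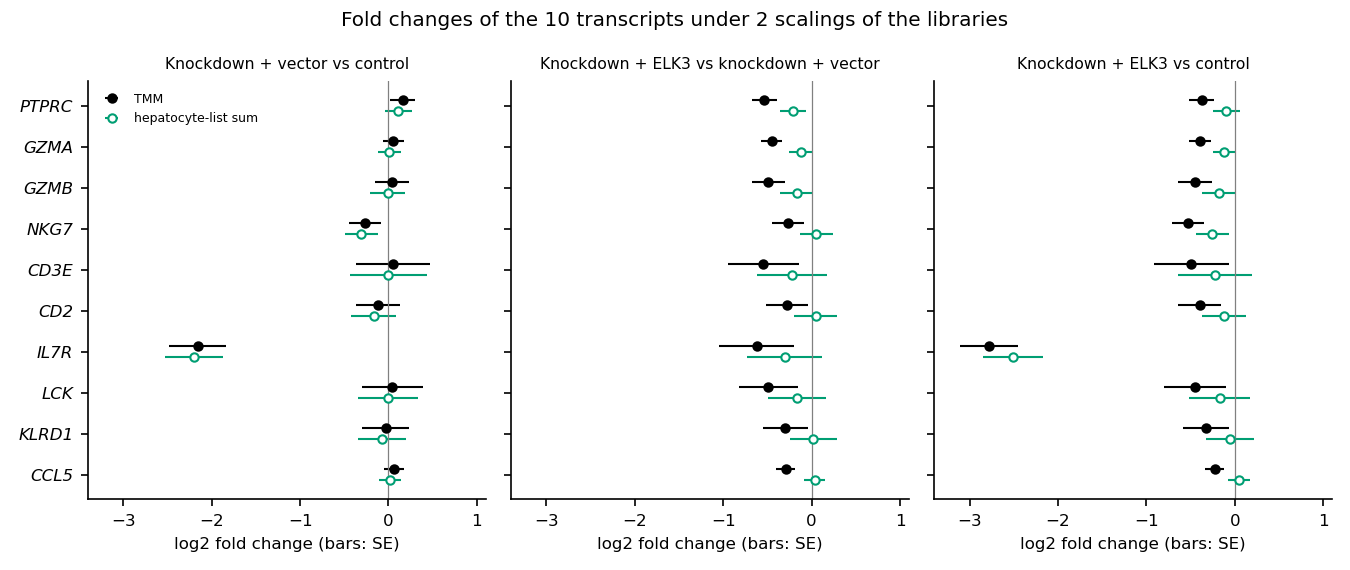
Log2 fold changes of the 10 transcripts with their SE in the 3 contrasts, fitted with TMM scaling (filled) and with the hepatocyte-list sum as library size (open). In both contrasts of the ELK3-labelled pair the open points lie to the right of the filled ones, and IL7R is far below 0 in both contrasts with the controls.

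Other genes of T and NK cells gave a wider view. The lists held 22 T-cell and 29 NK and cytotoxic genes besides the members, and 35 of these 51 passed the filter on low counts, 8 and 27 respectively. Both lists had been drawn up with earlier results of these data known. GNLY, the granule protein granulysin, had the most counts: 441 and 425 in the control pair, 599 and 426 in the vector pair and 428 and 718 in the ELK3-labelled pair. CD7, an early T and NK surface protein, had 85 and 85, 126 and 98, and 100 and 164 counts. The CD3 chains differed in their counts per library, with 2 to 6 of CD3D, 2 to 11 of CD3G and 12 to 30 of the member CD3E. CD247, the zeta chain, which NK cells also use, had 88 to 183, and NCR1, an NK receptor, had 1 to 3. CTLA4 was at 0 in 5 of the 6 libraries.

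Summed over its genes, the NK list stood at 213.7 to 235.7 and the T-cell list at 39.1 to 46.7 counts per 10000 hepatocyte-list counts. The vector pair was highest in both lists, at 232.2 and 235.7 for the NK list and 44.9 and 46.7 for the T-cell list. With the hepatocyte sum as the measure of depth, the spread of 32 of the 35 tested genes lay under 3 times counting error. Of all tested genes, 13.99% lay under 3 on that scale. The exceptions among the 35 were XCL1 at 21.7, KLRG1 at 10.3 and CD160 at 5.33. With the TMM-scaled depth the 35 ran from 0.502 to 28.8. More of them then exceeded 3, among them GNLY at 6.64, CD247 at 5.69, TBX21 at 5.37 and PRF1 at 5.33.

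Between the vector-labelled and control libraries, 5 of 35 T-cell and NK genes rose and 0 fell, with a median log2 difference of 0.16, where 37% of all tested genes rose and 35.3% fell. XCL1, a chemokine of NK and CD8 T cells, rose from 6.69 and 8.60 CPM to 26.1 and 22.4 CPM, by 1.67 ± 0.22 on the log2 scale (SE, n = 2 per group; adjusted p = 2.59e-08). KLRG1, an inhibitory receptor, rose from 2.30 and 0.645 CPM to 6.02 and 9.20 CPM, by 2.31 ± 0.42 (adjusted p = 1.17e-05). Both calls held with every planned setting in which the gene was tested and with every library left out. CD160 and XCL2 rose by 1.03 ± 0.32 and 0.66 ± 0.25, and CD247 by 0.40 ± 0.17 (adjusted p = 0.0325). CD160 was lost without control replicate 2 and without vector-labelled replicate 2, where its adjusted p rose to as much as 0.088. XCL2 and CD247 were lost with DESeq2, and CD247 also without a filter on low counts. Both were lost without control replicate 1 and without vector-labelled replicate 1, and CD247 also without control replicate 2. The shares of all genes called in those fits are not given here. XCL1 and XCL2 are near-identical, so the split of reads between them is uncertain.

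Between the ELK3-labelled and vector pairs, 11 of 35 fell and 0 rose, with a median of -0.42, where 29.6% of all tested genes fell and 30% rose. The fallen genes were XCL1, CD8A, CD160, KLRC1, CD244, TBX21, CX3CR1, CD247, CCL4, PRF1 and GNLY. XCL1 fell to 12.2 and 8.72 CPM, by 1.25 ± 0.19 on the log2 scale (adjusted p = 7.7e-07). TBX21, the transcription factor T-bet, fell by 0.79 ± 0.21 (adjusted p = 0.00174), and CD247 fell by 0.60 ± 0.16 (adjusted p = 0.00137). These 3 calls held with every planned setting and every library left out, and the other 8 were each lost in at least 2. Fewer were called with either vector-labelled library or ELK3-labelled replicate 1 left out, and the share over all genes in those fits is not given here. The hepatocyte list fell in the same contrast, 26 of 29 genes with a median of -0.33. With the hepatocyte sum as library size, 1 of 35 fell and 1 rose, where 16.7% and 44.1% of all genes did: XCL1 at -0.92 ± 0.20 (adjusted p = 0.000201) and EOMES, a transcription factor of NK cells named after its value was seen, at 0.56 ± 0.24 (adjusted p = 0.0442).

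Between the ELK3-labelled and control libraries, 5 of 35 fell and 1 rose, with a median of -0.25, where 30.8% of all tested genes fell and 31.8% rose. KLRG1 rose by 2.09 ± 0.42 (adjusted p = 6.33e-05), as it had in the vector pair, against the same 2 controls. CD244, an NK receptor of the SLAM family, fell by 1.14 ± 0.33 (adjusted p = 0.00351). GZMH, KLRF1, CST7 and GNLY also fell, by 1.03 ± 0.34, 0.79 ± 0.33, 0.57 ± 0.20 and 0.34 ± 0.10. The calls of KLRG1 and CD244 held with every planned setting in which they were tested and every library left out. The other 4 were lost without ELK3-labelled replicate 1. Library totals without TMM gave 2 that rose and 2 that fell, where 38.4% and 24.5% of all genes did. With the hepatocyte sum as library size 1 fell, CD244, and 3 rose, KLRG1, XCL1 and XCL2, and the median turned to 0.02, where 20.2% of all genes fell and 42.8% rose.

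Markers of other blood lineages were counted in the same libraries. The myeloid list, 22 genes led by CD14, the monocyte coreceptor for lipopolysaccharide, stood at 137.4 to 150.7 counts per 10000 hepatocyte-list counts. CD14 itself had 240 and 238 counts in the control pair, 346 and 237 in the vector pair and 213 and 362 in the ELK3-labelled pair. The erythroid list, 10 genes led by HBB, beta-globin, stood at 94.2 to 100.6 per 10000, the narrowest range of the blood lists. HBB had 543 and 497, 778 and 563, and 542 and 840 counts. An exception within the myeloid list was CD68, named after its values were seen, with 121 and 151 counts in the control pair and 29 to 73 in the other 4 libraries. Of the erythroid list, 5 genes were at 0 in at least 1 library.

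The sums of the B-cell and pan-leukocyte lists varied more. B-cell and plasma-cell genes stood at 4.81 to 16.4 per 10000, and their defining genes were at or near 0: MS4A1, which encodes CD20, had 0 to 2 counts, and CD79A was at 0 in 4 of 6 libraries. CD22, an inhibitory B-cell receptor, made up most of the list in the control pair, with 87 and 101 counts there and 2 to 6 in the other 4 libraries. The pan-leukocyte list of 24 genes stood at 638.6 and 615.1 per 10000 in the control pair and 337.7 to 347.4 in the other 4. RAC2, a small GTPase of blood cells, fell by 2.07 ± 0.09 and SRGN, the granule proteoglycan serglycin, by 1.55 ± 0.10 on the log2 scale between vector-labelled and control libraries (SE, n = 2 per group). LCP1 and ITGB2, the others of the 4 with the most counts, fell by 0.92 ± 0.10 and 0.24 ± 0.10. In that contrast 3 of the 24 rose and 8 fell, where 37% and 35.3% of all genes did. CXCR4, CYTIP and IKZF3, named after their values were seen, rose by 1.05 ± 0.23, 1.07 ± 0.34 and 0.66 ± 0.18. The list's median log2 difference was -0.05. RAC2 went from 291.4 to 69.2 and SRGN from 145.3 to 49.3 mean CPM. IL7R, RAC2, SRGN and CD22 were thus all far higher in the 2 controls than in any other library, while PTPRC was not.

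The genes whose pattern over the 6 libraries was most like that of the summed members were sought among 8059 tested genes of at least 20 CPM, by the root mean square difference of centred log2 CPM. The nearest were ALKBH8, a tRNA methyltransferase, at 0.0318, RPL19 at 0.0365, ARHGAP19 at 0.0387, APOC1P1 at 0.0391 and RPL32 at 0.0424. RPL19 and RPL32 encode ribosomal proteins, and APOC1P1 is an apolipoprotein pseudogene whose reads may be shared with its parent gene. Of the 28 hepatocyte genes among the candidates, 16 were within the 100 nearest. The 6 libraries share their groups and scaling, so the likeness is a description.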

How the data were processed

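Total RNA of 6 libraries, 2 in each of 3 groups taken from the labels, was prepared with a QuantSeq kit, per the labels' protocols. The authors deposited raw counts per gene symbol, with no scaling (whole numbers, per the file headers and values). Per the submitters' processing notes, Bowtie2, edgeR and the hg19 build were used, without versions or roles. The counting tool and annotation are not given in the sources used here. Each table has 25737 lines, and lines sharing 1 of 286 symbols were summed.

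The counts were fitted in edgeR 4.0.16 under R 4.3.3 (filterByExpr, 15386 genes, TMM, a robust quasi-likelihood fit with 1 mean per group and 3 residual degrees of freedom), with limma 3.58.1 loaded, and DESeq2 1.42.0 served as an alternative. Two-sided p-values were adjusted over all genes that passed the filter (Benjamini-Hochberg), with a threshold of 0.05. Plots were drawn with Python 3.11.15, pandas 2.3.3, numpy 2.4.6 and matplotlib 3.10.9. The fit was tested on simulated data.

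The members and gene lists were chosen with earlier results of these data known. The rule for named genes took the 10 members, ELK3 and ALB, up to 4 genes with the most reads of each other list, any T-cell or NK gene called, and the 5 genes most like the summed members. Genes named outside it are marked or serve as checks of a cell type. Counts of different genes are set side by side in places. They are not read as differences in level between genes, since the part of the transcript that the counts cover is not given. Alternatives were DESeq2 size factors, library totals, DESeq2, no low-count filter, at least 10 CPM in 2 libraries, a replicate block, only the 4 libraries compared, leaving out symbols on several lines, and each of the 6 libraries left out in turn. Within groups the chi-square per degree of freedom between replicates was 2.31 to 3.21, so replicates differed by more than counting error. No batch is given in the labels.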

Additional observations from a re-analysis of the deposited data

How the results depend on the processing

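Counts of called genes over all genes stayed within 1.5 times with every alternative. For the 35 other T-cell and NK genes, DESeq2 called 3 between vector-labelled and control, 4 between ELK3-labelled and vector-labelled, and 3 between ELK3-labelled and control libraries, where the fit as reported gave 5, 11 and 6. A filter of 10 CPM called 2 of the 14 genes it tested in the last contrast, and its share over all genes is not given here. With the hepatocyte sum as library size, chosen after seeing the data, 2 were called in the second contrast, and the log2 difference of CCL5 there turned from -0.29 to 0.034, as did those of NKG7, CD2 and KLRD1, not called on either scale, to 0.05, 0.05 and 0.02. Leaving out each library in turn gave 3 to 5, 5 to 11 and 2 to 7 calls. Summed CPM of the members, 209.2, 204.1 and 155.1 in the control, vector and ELK3-labelled pairs, became 195.3, 209.3 and 161.9 with library totals alone. With 1 library left out it was 211.6 to 215.0 in the controls, 201.6 to 202.2 in the vector pair and 151.6 to 156.3 in the ELK3-labelled pair. The causes of these shifts were not tested.

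The share of higher among called genes was 50.8% between ELK3-labelled and control libraries, 61.1% with library totals and 68.0% with the hepatocyte sum. Between the ELK3-labelled and vector pairs it was 50.3%, and 72.5% with the hepatocyte sum. The hepatocyte sum moved the median log2 difference of all genes to 0.31 and 0.30 in the contrasts of ELK3-labelled with vector-labelled and control libraries, and library totals moved it to 0.18 in both contrasts with the controls.

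Replicate numbers recur in each group, but the labels tie them to nothing, and the deviations of same-numbered libraries had correlations of -0.06, 0.03 and -0.00066. With the replicate block 5, 12 and 6 T-cell and NK genes and 11057, 9051 and 9531 of all genes were called. With 2 libraries a group and 12 to 30 counts of CD3E in a library, only large differences of the rarer members could be detected.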
